A study of Homo sapiens with 30 samples.

Results

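The comparison set 6 bead arrays labelled shATM against 6 labelled shATR, of 30 arrays in all, and asked how cells with a hairpin against one apical checkpoint kinase differed from cells with a hairpin against the other. The arrays were chosen by their labels alone. The cells were MCF-10A, an established human line of breast epithelium that is not transformed. Cyclin E was overexpressed in every culture, controls included, and each also held a stably integrated short hairpin RNA (shRNA). The 5 shRNAs were shControl, shATM, shATR, shCHK1 and shCHK2, each measured in set 1 and set 2 with 3 arrays per set. Per the labels, 200000 cells were seeded and grown for 48 hours. Nothing in the labels tells how set 1 differs from set 2, whether the replicates were separate cultures, or whether a knockdown line was a clone or a pool, so the p-values measure only the spread between arrays. Each comparison was therefore made within a set, 3 arrays against 3, and a gene was called when limma's adjusted p was under 0.05 in set 1 and in set 2 with the same sign. Levels are given on the log2 scale, and every difference is the shATM level minus the shATR level, in log2 units.

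ATM and ATR are large protein kinases that stand at the head of the DNA damage response. ATM is activated mainly at double-strand breaks and passes the signal to CHK2 and p53, whereas ATR is recruited to single-stranded DNA at stalled replication forks and activates CHK1, which holds back late origins and entry into mitosis. Overexpressed cyclin E drives cells into S phase early and slows forks, a source of replication stress on which both kinases act.

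Between 18984 and 21005 probes were detected per array among the 12, and the number of arrays limits the precision. On a principal component analysis of the 12 arrays, the first component (60.5% of the variance) separated set 1 from set 2. Replicate 3 of shATR set 2 stood apart from its replicates, at -19.2 on the third component beside 14.3 and 19.5. Its limma array weight, which is lower for an array farther from its group, was 0.288, and the weights of the other 11 arrays ran from 0.63 to 0.91 in set 2 and from 1.05 to 1.81 in set 1. Within set 1, arrays of the same shRNA correlated across genes at 0.994 to 0.996 and arrays of different shRNAs at 0.992 to 0.994, and within set 2 the ranges were 0.988 to 0.992 and 0.983 to 0.989. KRT5, KRT14, KRT8, KRT18 and EPCAM, which mark breast epithelium, were detected on 12 of 12 arrays, as were ELF3, ITGA6, ITGB4 and LAMB3. Of the other luminal markers, MUC1 was detected on 11, GATA3 on 9, KRT19 on 2 and ESR1 on 0. VIM, a mesenchymal marker, was detected on 12 of 12. CD3D, VWF, CDH5, KDR, PDGFRB and COL3A1, which mark T cells, endothelium and fibroblasts, were detected on 0, the leukocyte marker PTPRC and the fibroblast marker LUM on 1 each, the endothelial marker PECAM1 on 2, and the fibroblast genes COL1A1, COL1A2 and DCN on 3, 4 and 7. CD14 and CD68, known from myeloid cells, were detected on 12 of 12.

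The targeted transcripts were read first. ATM stood at 8.06, 8.12 and 8.15 in shATM set 1 and at 8.59, 8.91 and 8.80 in the arrays labelled shATR of that set. In set 2 it stood at 8.30, 8.54 and 8.32 beside 8.87, 8.99 and 9.28. The groups did not overlap in either set, and ATM was lower in shATM by 1.57-fold in set 1 and 1.58-fold in set 2 (differences -0.65 and -0.66, SE 0.10 each, limma's adjusted p = 0.00045 and 0.00014). A further ATM probe gave -0.76 and -0.50. ATM in the arrays labelled shATR lay within the range of the shCHK1 and shCHK2 group means, which ran from 8.76 to 9.10.

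ATR was not lower in the arrays labelled shATR. It lay near background, and its compared probe was detected on 3 of 3 arrays labelled shATR in set 1, 2 of 3 in set 2 and none of the 6 shATM arrays. Its levels were 5.28, 5.17 and 5.19 in the arrays labelled shATR of set 1 and 4.76, 4.57 and 4.54 in shATM. In set 2 they were 5.18, 4.65 and 5.20 beside 4.58, 4.53 and 4.76. In set 1 ATR was thus at least 1.19-fold higher in the arrays labelled shATR (limma's adjusted p = 0.045), and in set 2 the difference of -0.38 did not pass (adjusted p = 0.16). The set 1 call is marginal: with the authors' log2 values the differences were -0.20 and -0.13 (adjusted p = 0.14 and 0.30), and with p-values adjusted over probes the set 1 value was 0.073. A further ATR probe, detected on 1 of 12 arrays, gave -0.04 and 0.18. The ATR transcript therefore did not check the label, and the arrays are called those labelled shATR; a direction given below is the direction against arrays so labelled. The kinases downstream were not called: CHEK1 (CHK1) differed by -0.23 and -0.07, and CHEK2 (CHK2) by 0.08 and -0.17 (SE 0.11 and 0.13).

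CCNE1, which encodes cyclin E1, was higher in shATM in set 2. It stood at 7.64, 7.35 and 7.91 in shATM and at 6.50, 6.08 and 6.16 in the arrays labelled shATR, a 2.61-fold difference (1.38, SE 0.13, limma's adjusted p = 8.1e-08). In set 1 it stood at 7.54, 7.64 and 7.70 beside 7.06, 7.15 and 7.36, a difference of 0.43 that did not pass (adjusted p = 0.085). The difference itself depended on the set (0.95 larger in set 2, adjusted p = 0.0026). The shATM mean was 7.63 in each set, and that of the arrays labelled shATR was 7.19 in set 1 and 6.25 in set 2. The shControl means were higher, at 8.57 and 8.97. A further probe, detected on 3 of 12 arrays, gave 0.01 and 0.05. The labels do not say whether a probe reads the overexpressed transcript.

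Few genes differed in the same way in both sets. Of 13721 genes tested, 55 were called in both sets with the same sign (0.401%), 46 higher in shATM (0.335%) and 9 lower (0.0656%), while 31 were called in both sets with opposite signs (0.226%). Within set 1, 345 genes were called (2.51%), 169 higher (1.23%) and 176 lower (1.28%), and within set 2, 1148 (8.37%), 612 higher (4.46%) and 536 lower (3.91%). Of the 345, 189 had the same sign in set 2 and 55 were called there with it (15.9%). The differences of the sets correlated across genes at r = 0.066 (rho = 0.090, 13721 genes, which are not independent replicates). The count of 55 ran from 33 to 56 when 1 array was left out, lowest without replicate 2 of shATM set 1, and was 33 with the arrays scaled by their medians instead of quantiles. That scaling set the median of all genes at -0.14 in set 1 and -0.12 in set 2, so 6 of its 33 calls were higher in shATM (18.2%), against 83.6% of the 55.

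**Figure D1:**
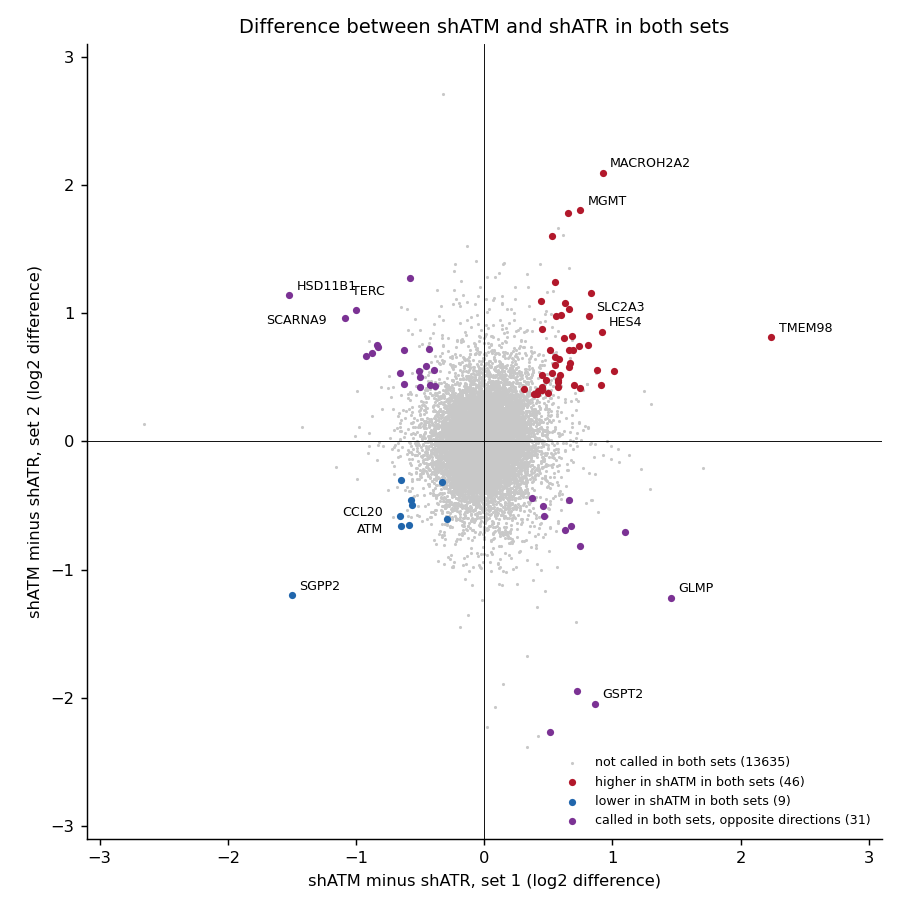
Each point is a gene, with the log2 difference between shATM and the arrays labelled shATR in set 1 on the x axis and in set 2 on the y axis. Red and blue points are the 46 genes higher and the 9 lower in both sets, and purple points the 31 called with opposite signs; the cloud shows no common axis (r = 0.066).

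Of the named genes called in both sets, 8 of 29 kept their call under all 25 alternatives that were fitted within sets, and these were MACROH2A2, HES4, SLC2A3, TMEM98, MGMT, ATM, SGPP2 and CCL20. MACROH2A2 encodes macroH2A2, a histone variant found in silent chromatin. It stood at 7.65, 7.62 and 7.34 in shATM set 1 and at 6.50, 6.64 and 6.70 in the arrays labelled shATR. In set 2 the levels were 8.51, 8.77 and 8.42 beside 6.27, 6.24 and 6.89. All shATM arrays lay above all arrays labelled shATR, and the gene was 1.90-fold higher in set 1 and 4.28-fold higher in set 2 (0.92 and 2.10, SE 0.15, limma's adjusted p = 0.00045 and 3.2e-10). In shCHK2 it was lower than in both, at 5.15 and 5.01 on average in the sets.

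MGMT, the methyltransferase that removes alkyl groups from guanine in DNA, was also higher in shATM. In set 1 its levels were 8.43, 8.52 and 8.28 in shATM and 7.74, 7.47 and 7.77 in the arrays labelled shATR. In set 2 they were 8.43, 8.66 and 8.35 beside 6.94, 6.74 and 6.36. The shATM levels were alike in the sets and those of the arrays labelled shATR were lower in set 2, so MGMT was 1.68-fold higher in set 1 and 3.49-fold higher in set 2 (0.75 and 1.80, SE 0.15, limma's adjusted p = 0.0033 and 3.6e-09). Among the 4 knockdowns shATM had the highest group mean in each set, below the shControl means of 9.35 and 9.43.

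HES4, a basic helix-loop-helix repressor of the family that carries Notch signals, followed the same order. It stood at 9.48, 9.70 and 9.52 in shATM set 1 beside 8.65, 8.48 and 8.82, and at 8.53, 8.48 and 8.54 in shATM set 2 beside 7.79, 7.81 and 7.39. The differences were 0.92 and 0.86 (SE 0.14, limma's adjusted p = 0.00023 and 0.00018), or 1.89-fold and 1.81-fold. The group means in shCHK1 were 8.20 and 7.63, in shCHK2 7.60 and 6.87, and in shControl 10.47 and 10.94. Its promoter is shown because HES genes are the classical targets of RBPJ, the DNA-binding partner of Notch. The stretch is chr1:1000048-1000347 on the minus strand (RefSeq, GRCh38.p14), 250 bases before the start to 50 after it, with the searched RBPJ core GTGGGAA in capitals.
HES4: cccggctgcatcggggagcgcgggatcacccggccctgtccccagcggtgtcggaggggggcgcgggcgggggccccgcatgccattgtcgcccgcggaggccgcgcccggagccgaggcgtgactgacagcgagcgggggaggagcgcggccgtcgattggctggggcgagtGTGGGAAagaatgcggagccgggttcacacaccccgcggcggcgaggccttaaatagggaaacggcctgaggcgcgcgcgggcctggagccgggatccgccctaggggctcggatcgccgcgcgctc
The core was searched on both strands and was present in 2194 of 35116 promoters (6.25%), which belonged to 2082 of 27305 genes (7.62%). Of the 55 genes, 39 had a promoter in the table, and 5 of these held the core (GUCY1A1, HES4, MAOA, NME4 and SGPP2). A match of letters is a description and not a binding site.

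TMEM98, which encodes a transmembrane protein, showed the largest difference of set 1 among the genes called in both sets. It stood at 7.72, 7.42 and 7.55 in shATM set 1 beside 5.45, 5.14 and 5.37 (2.24, SE 0.19, limma's adjusted p = 5.3e-08). In set 2 the levels were 6.38, 6.41 and 6.04 beside 5.25, 5.92 and 5.21 (0.81, adjusted p = 0.0057). Its further probe, detected on 4 of 12 arrays, gave 0.65 and 0.19. SLC2A3 encodes the glucose transporter GLUT3. It stood at 9.31, 9.20 and 9.16 in shATM set 1 beside 8.35, 8.43 and 8.44, and at 7.83, 7.97 and 7.98 in set 2 beside 7.07, 6.86 and 6.91. The differences of 0.81 and 0.98 (SE 0.10, limma's adjusted p = 8.8e-06 and 1.2e-07) were larger than the spread between replicates.

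The other genes of the 12 with the largest common rise in shATM had smaller or less steady differences. KCNG1, a silent subunit of voltage-gated potassium channels, differed by 0.83 and 1.16. FBXO6, an F-box protein that binds glycoproteins, differed by 0.74 in each set. NME4, the mitochondrial nucleoside diphosphate kinase, differed by 0.66 and 1.03. DIXDC1, a WNT pathway protein with a DIX domain, differed by 0.81 and 0.75, but its further probe, detected on 12 of 12 arrays, gave 0.04 and 0.01. CRABP2, which carries retinoic acid to the nucleus, differed by 0.69 and 0.72. It was detected on 1 of 3 arrays labelled shATR in set 2, so its set 2 size rests on dim values. GUCY1A1, a subunit of the nitric oxide receptor, differed by 0.68 and 0.82, and TRPM4, a calcium-activated cation channel, by 0.66 and 0.71. A further GUCY1A1 probe, detected on 10 of 12 arrays, gave 0.70 and 0.41 (limma's p adjusted over probes = 0.090 and 0.27). With median scaling the calls of KCNG1, FBXO6, NME4, CRABP2, GUCY1A1 and TRPM4 were lost in set 1, where the adjusted p-values by limma ran from 0.054 for KCNG1 to 0.12 for TRPM4, and the call of CRABP2 was lost without any 1 of 8 arrays (adjusted p up to 0.27 without replicate 2 of shATR set 1). Leaving out 1 array also ended the call of DIXDC1 (0.053 without that same array), of GUCY1A1 for 2 arrays and of TRPM4 for 4 (up to 0.077 and 0.095, both without replicate 2 of shATM set 1).

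**Figure D2:**
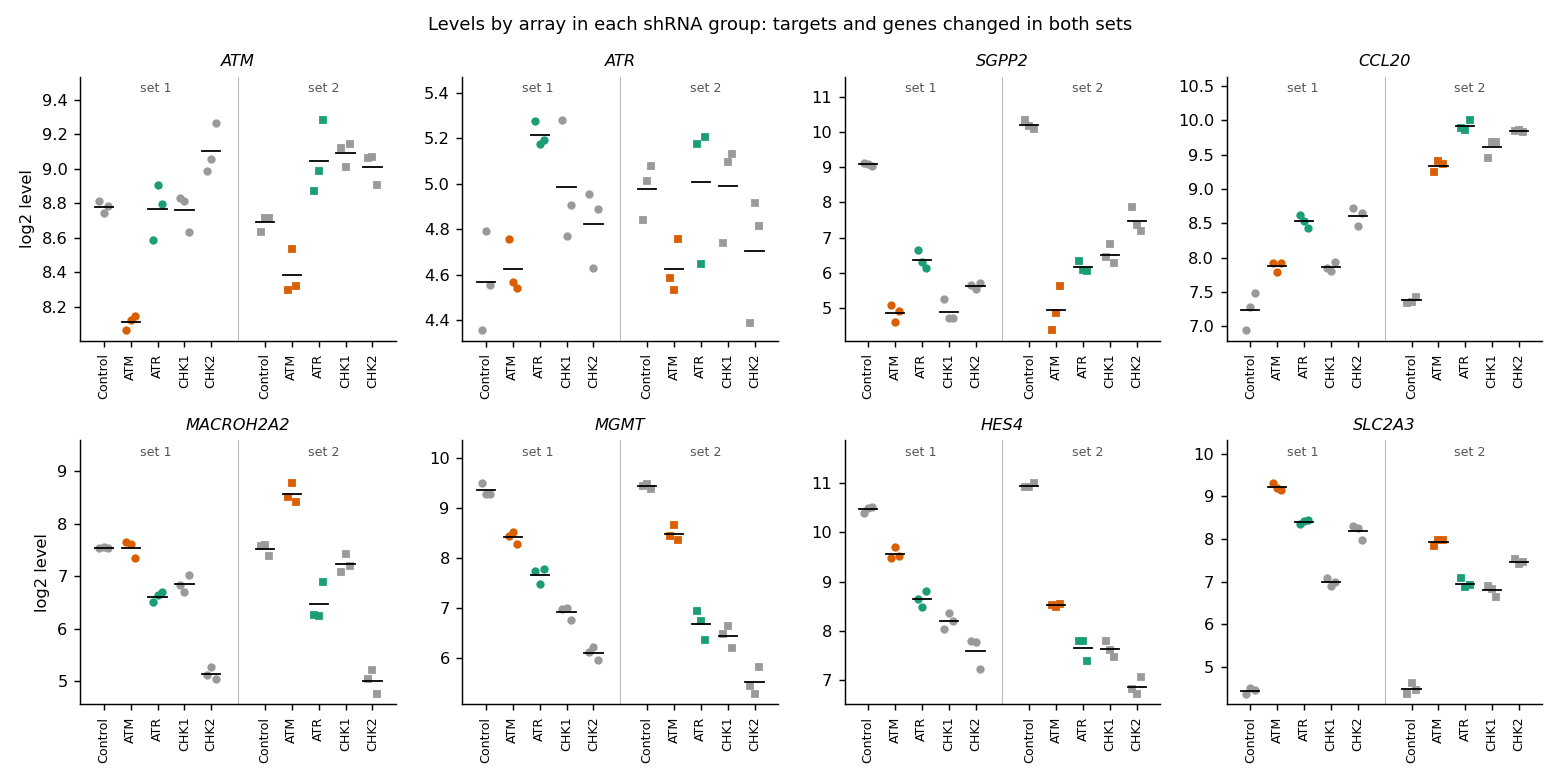
Log2 levels on the 30 arrays by shRNA, set 1 (circles) left of the line and set 2 (squares) right of it, with shATM in orange, shATR in green, other groups in grey and a bar at each mean of 3 arrays. ATM, SGPP2 and CCL20 were lower in shATM than in shATR in both sets, and MACROH2A2, MGMT, HES4 and SLC2A3 were higher. ATR lay near background, higher on average in the arrays labelled shATR, and its difference passed in set 1 only, marginally.

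All 9 genes lower in shATM in both sets are given, of which ATM was 1. SGPP2, a sphingosine-1-phosphate phosphatase, had the largest difference. It stood at 5.09, 4.60 and 4.92 in shATM set 1 beside 6.66, 6.31 and 6.13, and at 4.37, 4.87 and 5.62 in shATM set 2 beside 6.35, 6.07 and 6.04. No arrays overlapped, and the differences were -1.50 and -1.20 (SE 0.23, limma's adjusted p = 0.00023 and 0.00093), or 2.83-fold and 2.30-fold; it was detected on 1 of 3 shATM arrays in each set, so these folds rest on dim values. In shControl its group means were 9.08 and 10.20, and in shCHK1 of set 1 it lay at 4.90, close to shATM.

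The SGPP2 promoter is shown because this gene, which moved opposite to HES4, holds the same core. One of its 2 listed starts lies in chr2:222423738-222424037 on the plus strand (RefSeq, GRCh38.p14), with the core, here read on the other strand, in capitals.
SGPP2: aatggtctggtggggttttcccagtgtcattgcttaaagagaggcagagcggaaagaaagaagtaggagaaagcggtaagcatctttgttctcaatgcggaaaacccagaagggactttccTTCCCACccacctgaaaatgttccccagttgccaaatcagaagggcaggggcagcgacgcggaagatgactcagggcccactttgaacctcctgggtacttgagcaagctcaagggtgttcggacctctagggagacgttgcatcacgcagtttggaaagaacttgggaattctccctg
The promoter of its other listed start held no copy of the core.

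CCL20, the chemokine that draws CCR6-bearing lymphocytes, was lower in shATM in both sets. It stood at 7.92, 7.78 and 7.92 in shATM set 1 beside 8.63, 8.53 and 8.43, and at 9.25, 9.40 and 9.36 in set 2 beside 9.89, 9.86 and 10.01. The groups did not overlap, and the differences were -0.65 and -0.58 (SE 0.11, limma's adjusted p = 0.00051 and 0.00067). CCNA2, or cyclin A2, which drives S phase and mitotic entry with CDK2 and CDK1, stood at 9.61, 9.64 and 9.68 in shATM set 1 beside 9.95, 9.94 and 9.91. In set 2 it stood at 10.11, 10.17 and 10.21 beside 10.75, 10.77 and 10.79 (-0.29 and -0.61, SE 0.07, adjusted p = 0.026 and 2.9e-06). Replicates of CCNA2 lay close together and the groups did not overlap.

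The 5 others were smaller or less steady. CGAS, the cytosolic DNA sensor that makes cGAMP, stood at 5.57, 5.82 and 5.75 in shATM set 1 beside 6.29, 6.26 and 6.30, and at 6.0, 5.96 and 6.18 in set 2 beside 6.69, 6.43 and 6.39. Its differences of -0.57 and -0.45 passed narrowly (limma's adjusted p = 0.022 and 0.043). PLA2G12A, a secreted phospholipase, differed by -0.59 and -0.65, SNORA57, a small nucleolar RNA that guides pseudouridylation, by -0.56 and -0.49, HMGB3, a chromatin protein, by -0.65 and -0.30, and PRKAA1, a catalytic subunit of AMP-activated kinase, by -0.33 and -0.31. A further PRKAA1 probe, detected on 12 of 12 arrays, gave -0.20 and -0.22 (limma's p adjusted over probes = 0.49 and 0.25). Leaving out 1 array ended the call of CGAS and of PRKAA1 for 10 of 12 arrays, of HMGB3 for 9, of SNORA57 and CCNA2 for 6 and of PLA2G12A for 3, with adjusted p up to 0.16, 0.21, 0.18, 0.13, 0.11 and 0.11 in that order. The highest of these came without replicate 1 of shATR set 2 (CGAS), replicate 1 of shATR set 1 (PRKAA1 and PLA2G12A), replicate 3 of shATM set 2 (HMGB3), replicate 3 of shATR set 1 (SNORA57) and replicate 1 of shATM set 1 (CCNA2).

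The 31 genes called in both sets with opposite signs had differences of similar size to those shared by the sets. Named are the 6 largest by the smaller of their set differences, sign left aside. All 31 also passed the test of the difference between sets, but that test uses the values that chose them and adds no support. GLMP, a lysosomal membrane glycoprotein, stood at 7.33, 7.17 and 7.11 in shATM set 1 beside 5.60, 5.60 and 6.03, and at 5.63, 5.53 and 5.27 in shATM set 2 beside 6.80, 6.92 and 6.38. It was 2.75-fold higher in shATM in set 1 and 2.33-fold lower in set 2 (1.46 and -1.22, SE 0.17). GSPT2, a translation termination GTPase, stood at 6.60, 6.81 and 6.64 beside 5.62, 5.61 and 6.23 in set 1, and at 5.51, 5.16 and 5.54 beside 7.46, 7.60 and 7.27 in set 2 (0.86 and -2.05). Both were thus high in shATM of set 1 and low in shATM of set 2.

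The other 4 ran the opposite way. HSD11B1, which regenerates active cortisol, stood at 6.65, 6.76 and 6.78 in shATM set 1 beside 8.27, 8.30 and 8.19, and at 6.78, 6.68 and 6.76 in set 2 beside 5.38, 5.61 and 5.81 (-1.52 and 1.14, SE 0.11). Its shATM levels were the same in the sets to within the spread, and the arrays labelled shATR moved. TERC, the RNA template of telomerase, stood at 4.87, 4.73 and 5.26 beside 6.05, 5.88 and 5.94 in set 1 (-1.0), where it was detected on 1 of 3 shATM arrays. In set 2 it stood at 5.48, 5.97 and 5.69 beside 4.75, 4.60 and 4.71 and was not well above background on any array labelled shATR, so it was at least 1.64-fold higher in shATM. SCARNA9, a Cajal body RNA that guides the modification of spliceosomal RNA, differed by -1.08 and 0.96, and TUBAL3, an alpha tubulin-like protein, by -0.84 and 0.75. Limma's adjusted p for the difference between sets, drawn from the values that chose the genes, ran from 2.9e-11 for HSD11B1 to 9.1e-05 for TERC.

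**Figure D3:**
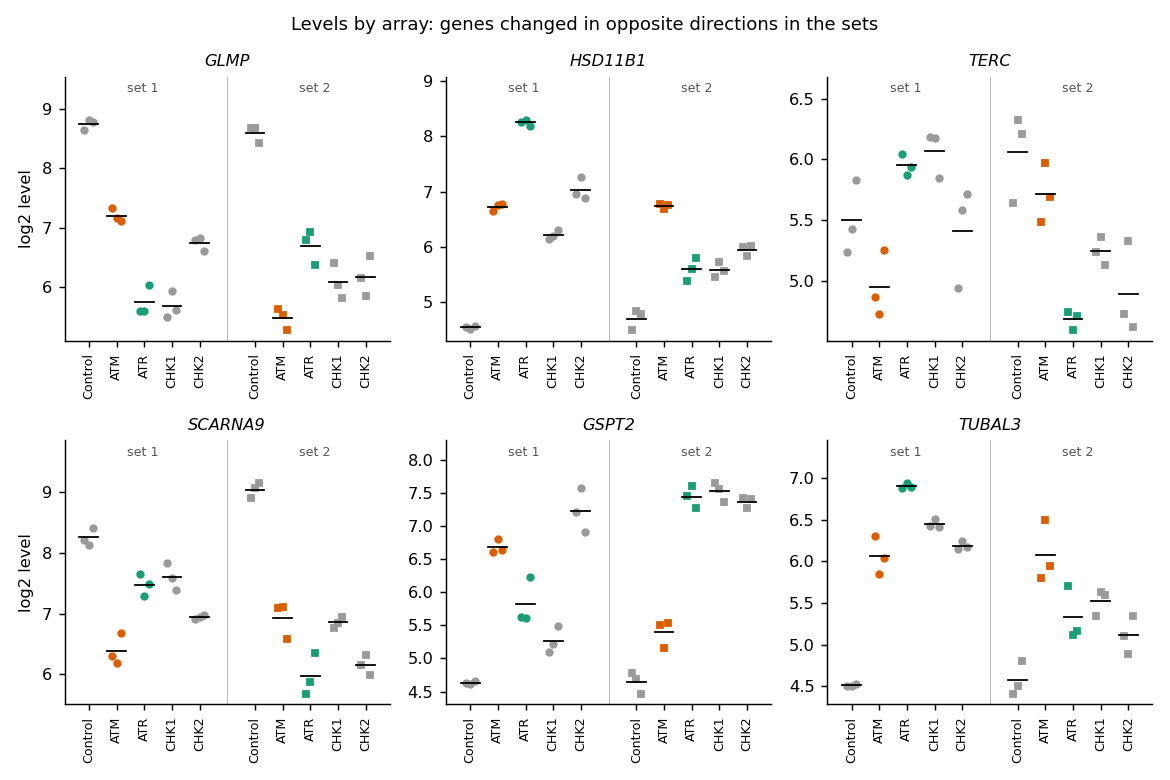
Log2 levels on the 30 arrays of 6 genes with opposite differences, drawn with the same symbols, shATM in orange and shATR in green. The 6 are the largest by the smaller of their set differences, sign left aside. GLMP and GSPT2 were higher in shATM in set 1 and lower in set 2, and HSD11B1, TERC, SCARNA9 and TUBAL3 the reverse.

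Over all genes, 612 passed the test of the difference between sets (4.46%), and 958 passed on the average of the sets (6.98%). With the 10 group means as single values, so that the sets were the replicates, limma called 0 genes on the average (275 had an unadjusted p under 0.05), and with each group as a random block it called 2, among them MACROH2A2 (adjusted p = 0.00095).

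Genes of the cell cycle were read as lists, with counts and medians. Of 37 genes of G2 and mitosis, 1 was lower in shATM in both sets (CCNA2), 8 were lower in set 1 and 7 in set 2, beside 1.28% and 3.91% of all genes, and none was higher in either, and the list medians were -0.22 and -0.13 beside values near 0 over all genes. In set 1 the mitotic kinesin KIF20A differed by -0.67 (SE 0.09, limma's adjusted p = 0.00011), the spindle protein HMMR by -0.52, securin (PTTG1) by -0.57, the transcription factor FOXM1 by -0.43 and the proliferation marker MKI67 by -0.58, and their set 2 values were 0.22, -0.01, 0.21, -0.22 and -0.01. In set 2 the kinase AURKB differed by -0.68, the checkpoint protein MAD2L1 by -0.62, the kinetochore proteins CENPE and NDC80 by -0.53 and -0.59, and the spindle kinase AURKA and its activator TPX2 by -0.35 and -0.38. Their set 1 values were 0.03, -0.19, -0.11, -0.43, -0.15 and -0.12. KIF20A, HMMR and PTTG1 lie on chromosome 5, CCNA2, MAD2L1 and CENPE in the stretch of chromosome 4, and NDC80 in that of chromosome 18 described below; without genes of those stretches the medians were -0.22 and -0.11, and 5 and 3 genes outside them were called lower. With the window medians subtracted the calls of HMMR, PTTG1, FOXM1, MAD2L1, CENPE, NDC80 and TPX2 were lost and that of KIF20A was kept. Leaving out 1 array ended the call of FOXM1 and of PTTG1 for 5 arrays, of MKI67 for 4, and of NDC80 and TPX2 for 1 each (replicate 3 and replicate 2 of shATR set 2).

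The 38 genes of DNA replication had medians of -0.22 and -0.06, with 2 called lower in set 1 (MCM4, a subunit of the replicative helicase, at -0.33) and 0 in set 2. Of all genes, 1.28% were called lower in set 1, and 4.46% higher and 3.91% lower in set 2. The 18 genes of the ATR branch had medians of -0.19 and -0.10 and the 14 of the ATM branch -0.03 and -0.16. Of the ATM branch, MDM2, the ubiquitin ligase of p53, differed by -0.18 and -0.71 and passed in set 2 (limma's adjusted p = 0.0067). Of 27 G1/S genes, 2 were lower in set 1, and 3 were higher and 1 lower in set 2, with medians of -0.09 and 0.15. The 2 were the G1 cyclin CCND1, at -0.52 in set 1 and -0.03 in set 2, and SKP2, which targets p27 for destruction and lies on chromosome 5, at -0.42 and 0.16. The 26 p53 targets had medians of -0.01 and -0.05, and none was called in both sets, where 0.401% of all genes were.

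A share of the inflammatory genes was lower in shATM in set 2. Of 24 cytokines, chemokines and related genes, 12 were lower in set 2 (3.91% of all genes were) and 1 in set 1 (CCL20; 1.28% of all genes), none was higher, and the medians were 0.11 in set 1 and -0.42 in set 2. CXCL8, the neutrophil attractant interleukin 8, stood at 9.75, 9.81 and 9.72 in shATM set 2 beside 11.40, 11.52 and 11.37, a 3.18-fold difference (-1.67, SE 0.09, limma's adjusted p = 4.6e-12). In set 1 it stood at 13.37, 13.57 and 13.74 beside 13.23, 13.25 and 13.20 (0.34, adjusted p = 0.051). The granulocyte factor CSF3 differed by -1.11 in set 2, PTGS2, which makes prostaglandins, by -1.02, CXCL1 by -1.0, CXCL2 by -0.92, IL24 by -0.77, IL1A by -0.56 and IL6 by -0.39. Their set 1 values ran from -0.39 (IL24) to 0.33 (CXCL2), and none passed. CXCL8, CXCL1 and CXCL2 lie in the stretch of chromosome 4 described below, and the other 9 called genes do not; the set 2 median without genes of the stretches was -0.39.

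Genes of the epithelial barrier and of secretion were higher in shATM in part. The 14 S100 genes, which encode small calcium-binding proteins, had medians of 0.26 and 0.29, with 1 higher in both sets, 7 higher in set 2 and none lower, beside 0.335% of all genes higher in both sets and 4.46% in set 2. S100P stood at 11.09, 11.28 and 11.23 in shATM set 1 beside 10.71, 10.39 and 10.64, and at 8.57, 8.52 and 8.75 in set 2 beside 7.73, 7.75 and 7.94 (0.62 and 0.81, SE 0.13, limma's adjusted p = 0.0052 and 0.00013). S100A8 and S100A9, which together form calprotectin, differed by 0.75 and 0.50 in set 2 and by 0.28 and 0.22, not called, in set 1. S100A4 differed by 0.42 and 0.67 and passed in set 2. These 3 genes lie on chromosome 1. With window medians subtracted, the S100 median stood above that of all genes by 0.14 in set 1 and 0.27 in set 2. The window medians include the S100 genes themselves, so the subtraction cannot separate the list from its stretch.

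The 31 genes of keratinocyte differentiation had medians of 0.21 in each set, with GRHL3 and CRABP2 called in both, beside 0.401% of all genes. GRHL3, a transcription factor of the epidermal barrier, stood at 9.12, 9.15 and 9.02 in shATM set 1 beside 8.42, 8.58 and 8.63, and at 7.66, 7.97 and 8.0 in set 2 beside 6.68, 6.30 and 6.92 (0.55 and 1.24, SE 0.14). Its further probes, detected on 6 and 9 of 12 arrays, gave 0.06 and 0.04, and 0.51 and 0.28. The cornified envelope precursors SPRR2D, SPRR2F and SPRR2A were higher in set 1 by 0.99, 0.99 and 0.92. In set 2 each was detected on at most 1 of 3 shATM arrays and 1 of 3 labelled shATR, beside 3 of 3 shControl arrays. SPRR1B differed by 0.57 and 0.86 and SCEL, another envelope protein, by 0.45 and 0.89, and both passed in set 2. KRT80, a keratin of the suprabasal layers, went the other way in set 2 (-0.19 and -1.45). The SPRR2 genes lie on chromosome 1, where the window from SPRR3 to SLC39A1 had a median of 0.22 in set 1. With window medians subtracted, the list median stood above that of all genes by 0.098 in set 1 and 0.19 in set 2. Here too the list's own members are part of the window medians, so list and stretch cannot be separated.

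Of 22 luminal genes 2 were called in both sets, SLPI and AGR2, beside 0.401% of all genes, and the medians were 0.25 and 0.10. In set 1, 5 were higher, and in set 2, 5 were higher and 1 lower. Of all genes, 1.23% were higher in set 1, and 4.46% higher and 3.91% lower in set 2. SLPI, a secreted inhibitor of leukocyte proteases, stood at 11.89, 11.93 and 11.84 in shATM set 1 beside 11.54, 11.34 and 11.43, and at 9.21, 9.29 and 9.11 in set 2 beside 8.60, 8.28 and 8.10 (0.45 and 0.87, SE 0.11). AGR2, a protein disulphide isomerase of secretory cells, differed by 0.58 and 0.42, and its further probe, detected on 7 of 12 arrays, by -0.37 and 0.44. LCN2, a siderophore-binding protein, differed by 1.29 and -0.37 and the mucin MUC1 by 0.49 and 1.16, and they passed in set 1 and in set 2 respectively. MUC1 was detected on 2 of 3 arrays labelled shATR in set 2. KRT15, a basal keratin, stood at 13.14, 13.04 and 13.26 in shATM set 1 beside 12.52, 12.46 and 12.65, and at 9.46, 9.64 and 9.70 in set 2 beside 8.50, 8.71 and 8.62 (0.60 and 0.99, SE 0.10).

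Of 17 metalloproteinases and inhibitors 2 were higher in both sets, beside 0.335% of all genes, and the medians were 0.21 in each. TIMP2, an inhibitor of these proteases, differed by 1.01 and 0.55, and its further probe, detected on 5 of 12 arrays, by 0.71 and 0.03. MMP28, or epilysin, differed by 0.51 and 0.71, and its further probes by 0.58 and 0.99 (detected on 12 of 12 arrays) and by 0.06 and 0.27 (9 of 12), while MMP9, a gelatinase, differed by 0.24 and 1.11 and passed in set 2. MMP9 was detected on 2 of 3 arrays labelled shATR in set 2. Of 16 Notch genes HES4 and the ligand DLL3 were higher in both sets, beside the same 0.335% of all genes. DLL3 stood at 8.89, 8.79 and 8.65 in shATM set 1 beside 8.21, 8.18 and 8.20, and at 8.98, 8.96 and 9.10 in set 2 beside 8.43, 8.18 and 8.51 (0.58 and 0.65, SE 0.12). HES1, a target repressor, differed by 0.35 and 0.56 and the ligand JAG2 by -0.11 and 0.57, both passing in set 2, and LFNG, which glycosylates Notch receptors, turned its sign (-0.50 and 0.51). The Notch medians were 0.04 and 0.20. The kallikrein KLK6 was lower in shATM by -0.87 in set 1 and at least 1.30-fold higher in set 2.

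These calls depended on the scaling of the arrays. With median scaling, S100P, GRHL3, CRABP2, SLPI, AGR2, KRT15, TIMP2, MMP28 and DLL3 each missed the threshold in at least 1 set (limma's larger adjusted p from 0.098 for CRABP2 to 0.38 for AGR2), and the S100, keratinocyte, luminal and metalloproteinase medians stood above that of all genes by 0.22, 0.20, 0.23 and 0.18 in set 1 and by 0.31, 0.23, 0.18 and 0.24 in set 2. Leaving out 1 array ended the calls of SLPI, AGR2, GRHL3, TIMP2, MMP28 and S100P for 5, 7, 6, 4, 4 and 1 of 12 arrays, with adjusted p up to 0.13, 0.26, 0.14, 0.092, 0.11 and 0.053; the highest came without replicate 2 of shATR set 1 (SLPI and S100P), without replicate 2 of shATR set 2 (AGR2), replicate 1 of shATR set 1 (GRHL3), replicate 3 of shATM set 2 (TIMP2) and replicate 1 of shATM set 1 (MMP28).

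**Figure D4:**
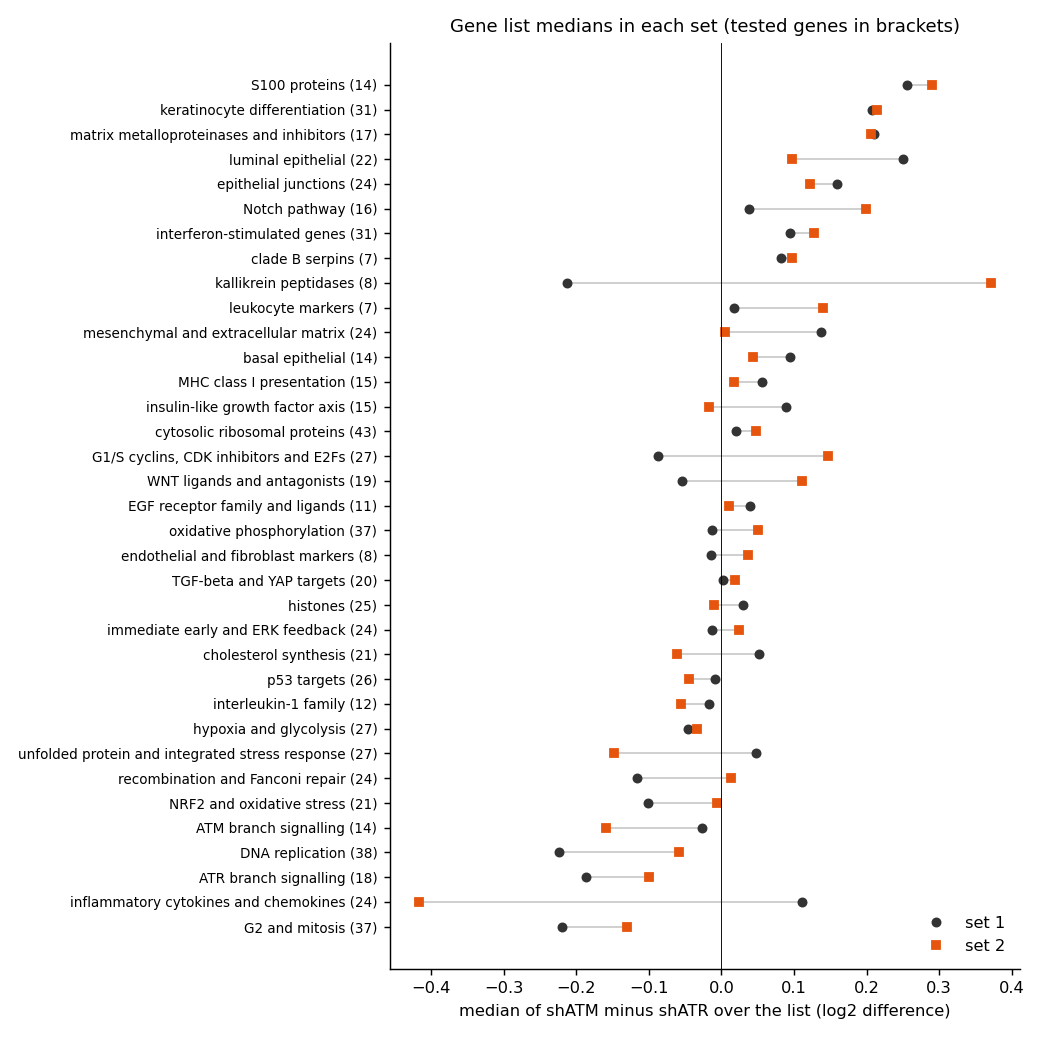
Medians of the shATM minus shATR log2 difference over the tested genes of each of 35 lists, set 1 as circles and set 2 as squares. The G2 and mitosis list lay below 0 and the S100 list above 0 in both sets, and the inflammatory and kallikrein lists lay on opposite sides of 0 in the sets.

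Part of the difference lay in whole stretches of chromosomes. Tested genes were put in order along the RefSeq annotation and split into 452 windows of 30 neighbours. The stretches were chosen for their values, so these are given with no test. In set 1 the window median was at least 0.15 from 0 in 25 windows, and 20 of them were the 20 windows of chromosome 5. Its 600 tested genes had a median of -0.21 in set 1, where 494 lay below 0 and 79 were called lower and 2 higher, and of 0.08 in set 2. Of the 176 genes called lower in set 1, 44.9% were on chromosome 5, which holds 4.37% of the genes tested. On each array, the median deviation of the chromosome's genes was taken from their mean over the knockdown arrays of the same set. It lay between -0.14 and -0.13 in shATM set 1 and between 0.08 and 0.11 in the arrays labelled shATR of that set. The shControl arrays of set 1 lay between -0.06 and -0.03.

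In set 2, 7 neighbouring windows of chromosome 4, from OCIAD2 to LARP1B (210 genes), had a median of -0.41, against -0.01 in set 1, and 98 genes there were called lower and 3 higher. Arrays of shATM set 2 lay between -0.30 and -0.27 in that stretch, and those labelled shATR of set 2 between 0.06 and 0.11. The shControl arrays lay between 0.46 and 0.47 in set 1 and between 0.06 and 0.11 in set 2. Each set was measured from its own knockdown mean, so the shControl values of the sets are not on a common scale. The first 2 windows of chromosome 18 (60 genes, ROCK1P1 to RMC1) had a median of -0.31 in set 2 and -0.03 in set 1, with 26 genes called lower. There the arrays labelled shATR of set 2 stood high, at 0.20, 0.24 and 0.32, while shATM set 2 lay between -0.08 and -0.06. Together the stretches of set 2 and the first 2 windows of the X chromosome, which had a median of 0.17, held 23.7% of the 536 genes called lower and 2.41% of the genes tested.

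**Figure D5:**
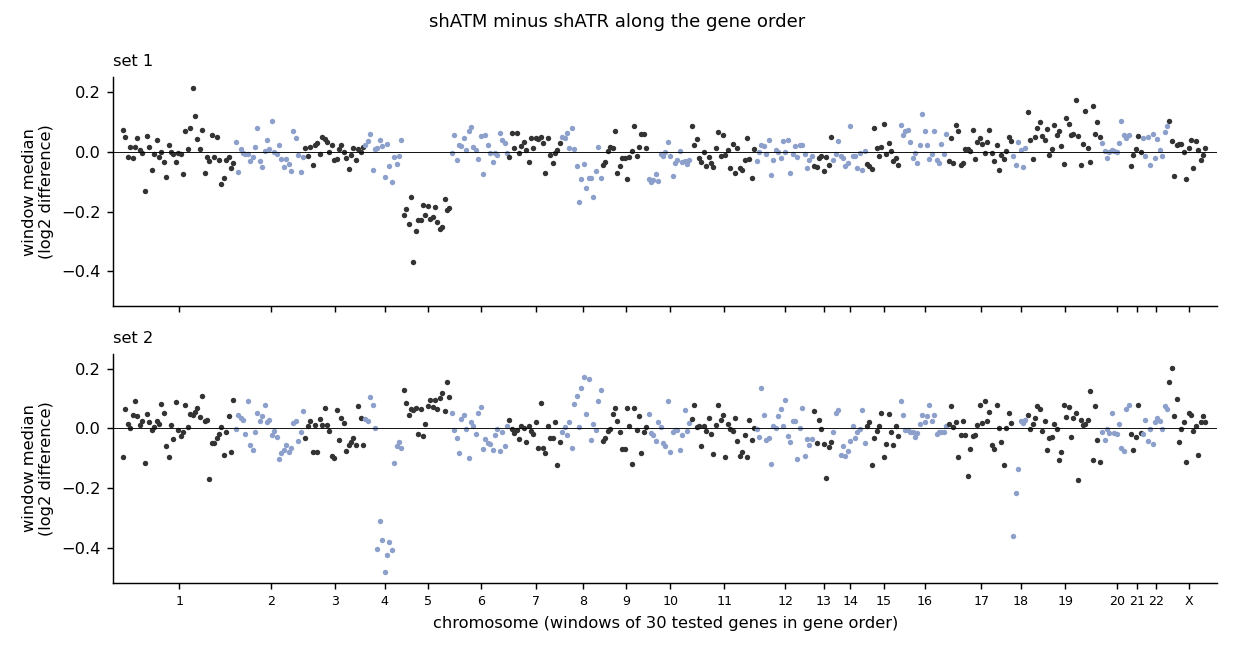
Median log2 difference between shATM and the arrays labelled shATR in each window of 30 tested genes, in gene order by chromosome, for set 1 (top) and set 2 (bottom). All 20 windows of chromosome 5 lay at least 0.15 below 0 in set 1. In set 2, 7 neighbouring windows of chromosome 4 and the first 2 of chromosome 18 lay at least 0.15 below 0.

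Named genes stood in these stretches. Chromosome 5 held PRKAA1 and 8 of the 31 genes with opposite signs, among them the matrix genes SPARC (-0.66 and 0.54) and TGFBI (-0.46 and 0.59), and the stretch of chromosome 4 held CCNA2 and PLA2G12A. With the window median subtracted on each array, CCNA2 differed by -0.24 and -0.25, PLA2G12A by -0.49 and -0.29 and PRKAA1 by -0.03 and -0.31, and none was called in both sets (limma's larger adjusted p = 0.19, 0.24 and 0.96). That correction left 34 genes called in both sets, of which 32 were among the 55, and 203 in set 1.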

How the data were processed

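The deposited table without normalization holds, per the file headers, a linear intensity and a detection p-value for each of 47231 probes on each array. The authors also deposited log2 values, used here as an alternative. The aligner or build behind the probe annotation is not given in the sources used here; 30113 probes had 1 gene symbol, 8 had several and 17110 none. limma's neqc corrected the intensities for background and normalized them by quantiles (limma 3.58.1, R 4.3.3, offset 16). Probes with detection p under 0.05 on at least 3 arrays were kept (26967), and each gene took its kept probe with the highest mean, which left 13721 genes.

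The linear model held 1 mean per group (10 groups) on 30 arrays (20 residual degrees of freedom) and was fitted with lmFit and eBayes, and two-sided p-values were adjusted by Benjamini-Hochberg over all genes within each contrast. Where a probe was not detected on any array of a group, the fold is a bound that sets each such array no lower than its dimmest detected probe. Named are ATM, ATR, CHEK1, CHEK2, CCNE1, and the 12 genes higher and the 12 lower (9 existed) by the smaller of the set differences among those called in both sets. By the same measure, the 6 largest of opposite sign and up to 4 called members of each list are also named. Other members of a key role were added. The members and the 35 lists (748 of 897 entries tested) were chosen with earlier results of these data known. On simulated data with 13721 genes, 41% of genes changed 1.5-fold and 83% of those changed 2-fold were called in both sets. Of 13521 unchanged genes, 0 were called in both sets with the same sign and 0 with opposite signs. Apart from the added changes, the simulated arrays held independent noise around 1 mean per gene. They had no differences between sets and no shifts of chromosome stretches. They therefore cannot show how many calls on the real arrays were wrong, the 31 of opposite signs included. The share of wrong calls among the 55 genes called in both sets was not tested.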

Additional observations from a re-analysis of the deposited data

Results flagged for a closer look

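The difference between shATM and the arrays labelled shATR depended on the set, by limma's test of that dependence, for 612 of the genes tested, and 33 of them are named in the report. Each value is the set 2 difference minus the set 1 difference, in log2 units, and each had an adjusted p under 0.05.

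Among the genes called with opposite signs the values were GSPT2 (-2.91), GLMP (-2.68), HSD11B1 (2.66), SCARNA9 (2.04), TERC (2.03) and TUBAL3 (1.59). Genes with the same sign in both sets but a different size had MACROH2A2 (1.17), MGMT (1.06), TMEM98 (-1.43), GRHL3 (0.69) and CCNE1 (0.95). Inflammatory genes had CXCL8 (-2.01), CXCL1 (-1.22), CXCL2 (-1.26), CSF3 (-1.22), PTGS2 (-1.19) and IL1A (-0.50). Cell cycle genes had KIF20A (0.88), PTTG1 (0.78), AURKB (-0.71), SKP2 (0.58) and CCND1 (0.49). Genes of the epithelial barrier and secretion had KRT80 (-1.26), SPRR2A (-1.03), SPRR2D (-1.03), SPRR2F (-1.13) and LCN2 (-1.67). Proteases, Notch and matrix genes had KLK6 (1.56), LFNG (1.01), JAG2 (0.68), MMP9 (0.87), SPARC (1.20) and TGFBI (1.05). The values of TERC, KLK6 and the SPRR2 genes are fitted differences and no measured sizes. In set 2 TERC and KLK6 were detected on 0 of 3 arrays labelled shATR. In the same set SPRR2F was detected on 0 of 3 arrays, and SPRR2A and SPRR2D on 1 of 3, both in shATM and in the arrays labelled shATR.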

How the results depend on the processing

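The 55 genes called in both sets became 99 with the authors' log2 values (48 of the 55 among them), 99 without background correction, 90 with an offset of 50, 95 with array weights, 33 with median scaling (15 of the 55), 34 with window medians subtracted and 20 where 1.5-fold was also required in each set. The 345 of set 1 became 556, 559 and 1067 with the authors' values, without background correction and with array weights, 197 with the 12 arrays alone and 203 with window medians subtracted. The 1148 of set 2 became 648 with array weights and 684 with each set fitted alone. The 958 on the average became 1934 with median scaling, 570 with the 12 arrays alone, 0 with group means and 2 with the group as a random block (495 at an unadjusted p under 0.05; correlation of 0.387). The 612 that depended on the set became 282 with median scaling, 359 with the 12 arrays alone and 381 with window medians subtracted. The ATR probe, at -0.49 on the average (limma's adjusted p = 0.0132), stood at -0.16 with the authors' values (0.0513) and without background correction (0.0522). The cause was not tested. Leaving out 1 array gave 33 to 56 genes in both sets, 203 to 423 in set 1, 845 to 1166 in set 2, 640 to 1000 on the average and 466 to 614 for the dependence on set. Replicate numbers did not pair the arrays (correlations of deviations from -0.06 to 0.02), and the replicate block gave 59 genes in both sets, 51 of them among the 55. Window medians and separate fits per set were chosen after the data had been seen. Slide as a block was not run, since the headers name no slides. Among the 39 genes named by rule, no difference called within a set turned its sign; CHEK2 in set 1 and CHEK1 in set 2, which were not called, did. Of 45 calls within a set of the 41 other genes named, 21 were kept under all 24 alternatives fitted, 24 were lost under at least 1 and 0 reversed; IL6 lost its call under 12, MCM4 under 9 and KLK6 in set 2 under 6. Genes near background, such as ATR, SGPP2 and TERC, are limited by signal over background.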

Other observations

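Over all genes 2.51% were called in set 1, 8.37% in set 2 and 0.401% in both with the same sign. In set 2, 5 of 12 genes of the interleukin-1 family were called, 3 of them lower, 4 of 11 of the EGF receptor family and its ligands, 5 of 21 of the NRF2 response and 4 of 15 of the insulin-like growth factor axis, of which 3 were lower. Of 31 interferon-stimulated genes none was called in both sets, and the list medians were 0.09 and 0.13. Of 27 genes of the unfolded protein and integrated stress response, 0 were called in set 1 and 1 was higher and 2 lower in set 2, with medians of 0.05 and -0.15. The 37 genes of oxidative phosphorylation had medians of -0.01 and 0.05, and the 43 cytosolic ribosomal proteins 0.02 and 0.05 with 2 called lower in set 2. Of 27 genes of hypoxia and glycolysis SLC2A3 was the 1 called in both sets, and the medians were -0.05 and -0.03. Of 19 WNT ligands and antagonists 1 was lower in set 1, and 3 were higher and 1 lower in set 2.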
